A study of Mus musculus with 7 samples.

Results

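Transcripts of 8 neutrophil granule genes (Ngp, Camp, Ltf, Lcn2, S100a8, S100a9, Mpo and Elane) were followed through 7 RNA sequencing libraries of whole mouse adrenal glands, out of 35976 gene symbols in the table. The 8 genes were chosen by their measured values, for the wide gap between the male and the female library at 2 weeks, so that gap is described here without a test. All animals were of the inbred strain C57BL/6J, with no transgene or treatment named. The libraries were E18.5 (late embryo, 40 glands, sex not determined), P1 male (postnatal day 1, 16 glands), P1 female (22 glands), 2-week male and 2-week female (6 glands each), and 12-week male and 12-week female (4 glands each). Every group was 1 pool of glands sequenced as 1 library, so the intervals given here cover counting error only, and no sex at any age has a replicate. The spread between animals, dissections and pools is not measured. A difference beyond counting error may still lie within that spread.

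Neutrophils are short-lived white blood cells that kill microbes with proteins stored in granules. The granules are filled in order as the cell matures: primary (azurophil) granules at the promyelocyte stage, then secondary (specific) granules at the myelocyte stage. In adult mice this happens in bone marrow, and around birth also in the liver. Circulating neutrophils thus carry the finished proteins, while transcripts of both granule classes are made mostly at those earlier stages. Mpo (myeloperoxidase, which makes hypochlorous acid) and Elane (neutrophil elastase) are primary granule proteins. Ngp (neutrophilic granule protein), Camp (the cathelicidin precursor), Ltf (lactoferrin, which binds iron) and Lcn2 (lipocalin, which captures bacterial siderophores) belong to secondary granules. S100a8 and S100a9 form calprotectin, an abundant protein of the neutrophil cytosol that is also made by monocytes.

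The 8 genes lie on 5 chromosomes of the mouse build GRCm38 (mm10), by the GENCODE annotation. Camp (chr9:109847379-109849617), Ngp (chr9:110419747-110423012) and Ltf (chr9:111019271-111042767) share chromosome 9, with 570.1 kb between Camp and Ngp and 596.3 kb between Ngp and Ltf. S100a8 (chr3:90668978-90670035) and S100a9 (chr3:90692632-90695721) are 22.6 kb apart on chromosome 3, with 0 protein-coding genes between them. Lcn2 lies at chr2:32384633-32388252, Elane at chr10:79886247-79888215 and Mpo at chr11:87793581-87804413. Mpo overlaps an antisense gene, Gm11505, and since the use of strand in counting is not given in the sources used here, its reads cannot be told apart from those of that gene.

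The promoters of the 8 genes were searched on both strands for 3 short motifs in the 250 bases before each RefSeq start (GRCm38.p6), because C/EBP factors and PU.1 are known to drive granule genes. The C/EBP letters TTGCNNAA occurred in 4 of 8 member promoters (Ngp, Ltf, Lcn2 and S100a9), against 9.56% of 32851 promoters in the table. The PU.1 letters GAGGAA occurred in 5 of 8 (Lcn2, S100a8, Ltf, Elane and Mpo), against 23.3%. The TATA box letters TATAAA occurred in 1 of 8 (S100a8), against 12.4%. The 3 motifs did not overlap one another in the member promoters, and a match describes letters, not a bound site. Shown are 3 promoters with the C/EBP letters and, as a primary granule gene without them, Elane, each read in the direction of its gene and ending before the earlier of its RefSeq and GENCODE starts. Capitals mark TTGCNNAA or GAGGAA on either strand.
Ngp (chr9:110419558-110419746, plus strand): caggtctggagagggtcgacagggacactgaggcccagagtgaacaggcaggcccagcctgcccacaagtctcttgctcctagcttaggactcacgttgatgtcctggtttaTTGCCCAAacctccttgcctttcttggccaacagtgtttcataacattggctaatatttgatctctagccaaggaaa
Ltf (chr9:111019042-111019270, plus strand): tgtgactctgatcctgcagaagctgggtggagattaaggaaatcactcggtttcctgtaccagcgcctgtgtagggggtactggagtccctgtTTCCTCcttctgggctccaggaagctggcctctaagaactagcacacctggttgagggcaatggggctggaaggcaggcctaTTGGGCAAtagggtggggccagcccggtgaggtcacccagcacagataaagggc
S100a9 (chr3:90695722-90695971, minus strand): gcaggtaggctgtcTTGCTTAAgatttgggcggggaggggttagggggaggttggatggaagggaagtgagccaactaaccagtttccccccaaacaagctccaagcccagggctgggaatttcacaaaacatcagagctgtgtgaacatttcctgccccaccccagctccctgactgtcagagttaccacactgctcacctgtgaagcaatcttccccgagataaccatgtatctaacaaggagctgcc
Elane (chr10:79886062-79886246, plus strand): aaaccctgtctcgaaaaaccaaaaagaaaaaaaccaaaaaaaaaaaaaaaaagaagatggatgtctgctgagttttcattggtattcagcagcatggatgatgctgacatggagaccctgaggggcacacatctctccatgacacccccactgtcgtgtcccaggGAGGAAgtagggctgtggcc

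Total reads in genes ranged from 15184210 to 23551289 per library. The library labelled P1 female held 4 Y-linked transcripts whose median level was 21.0% of that in P1 male, whereas the female libraries of 2 and 12 weeks had 0.0609% and 0.0132% of their male counterparts, so it goes in part against its label. Adrenal markers were looked for in each library, a check that does not exclude other tissue. All 12 adrenal cortex genes and all 10 adrenal medulla genes listed had reads in every library, and the summed cortex level ranged from 268408 (P1 female) to 1156820 (12-week female) normalized counts. Summed over 18 skeletal muscle genes, the level was 46330 at E18.5, 94343 in P1 male and 174868 in P1 female. It was 188.9 to 14677 in the later libraries. Muscle transcripts were thus present beside the adrenal ones. Levels below are normalized counts, which are reads divided by a size factor per library, and 3 reads correspond to between 2.45 and 4.19 of them.

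The secondary granule genes were high at E18.5 and P1, lower but still far from 0 in the 2-week female library, and low in the 2-week male library and at 12 weeks. For Camp the 2-week female level was within counting error of P1 female, at 93.5% (95% interval 72.6 to 121). In whole glands, fewer neutrophils and less RNA per neutrophil cannot be told apart. Ngp stood at 674 normalized counts before birth (E18.5), at 751 (male) and 489 (female) on P1, at 1.78 (male) and 347 (female) after 2 weeks, and at 0 in both 12-week libraries. Camp had 209, 192, 130.2, 0, 122, 6.99 and 0 in the same order of libraries. In both genes the 4 high libraries were separated from the 3 low ones by more than 10 times. Ltf had 782, 815, 568, 16.9, 378, 30.8 and 33.9 normalized counts. Lcn2 had 308, 455, 313, 8.90, 189, 11.2 and 1.13. Ltf was the member with the highest level at 12 weeks, with 22 reads in the male and 30 in the female library, and Lcn2 is a gene that epithelial cells and macrophages also make under inflammation.

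The calprotectin genes ran in parallel. S100a8 had 745, 988, 492, 4.45, 562, 5.59 and 6.79 normalized counts in that order. S100a9 had 902, 1227, 572, 6.23, 596, 14.0 and 10.2. In both genes the 2-week female library lay close to the P1 female library, above it beyond counting error for S100a8, and the 2-week male library had the lowest value of the 7.

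The primary granule genes differed from these in the 2-week female library. Mpo had 325, 474, 433, 0, 30.9, 0 and 1.13 normalized counts, again from E18.5 to 12-week female. Elane had 68.1, 76.9, 48.6, 1.78, 13.2, 0 and 0. Both were high only in the 3 libraries from E18.5 and P1. Their level in the 2-week female library lay between those and the low libraries. A level of 0 at 12 weeks allows up to 4.19 normalized counts in the male and 3.39 in the female library, the worth of 3 reads, and the two-sided 95% intervals plotted for 0 reads reach 5.16 and 4.17.

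**Figure D1:**
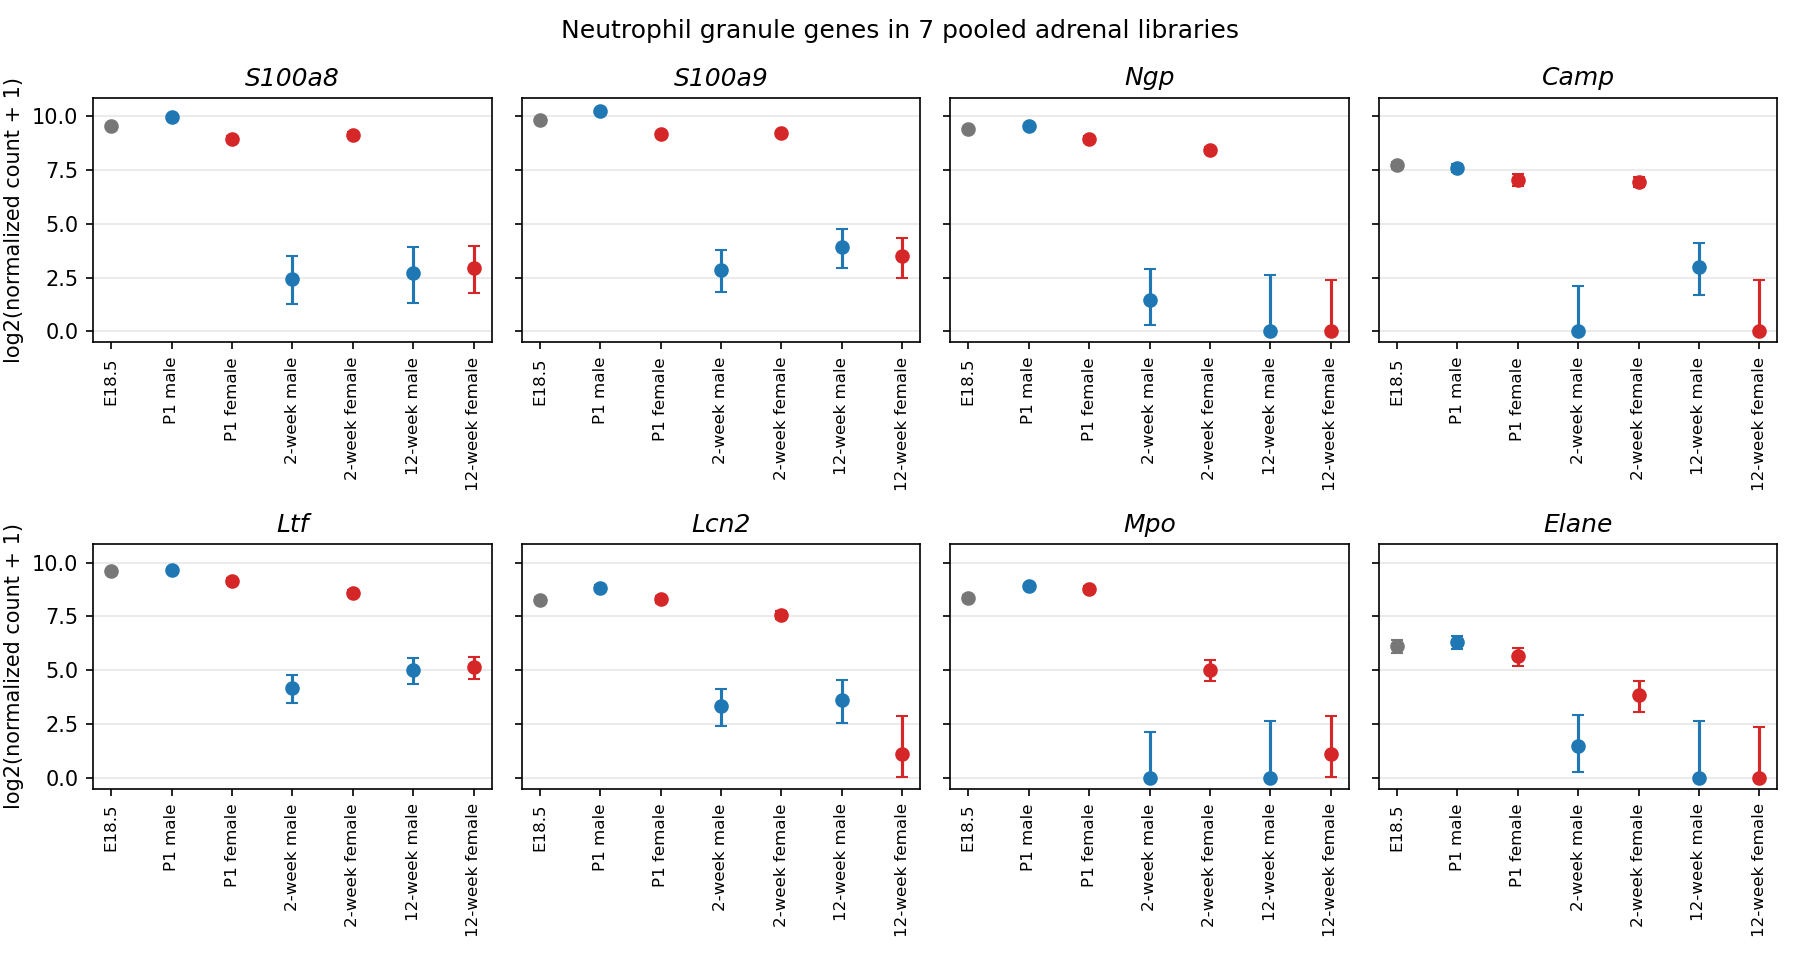
Levels of the 8 granule genes as log2(normalized count + 1) in the 7 libraries, with exact 95% Poisson intervals for counting error (grey unsexed, blue male, red female). For every gene the E18.5 and P1 libraries were high and the 2-week male and 12-week libraries low, and the 2-week female library stood near the high group except for Mpo (30.9 normalized counts) and Elane (13.2).

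P1 male had the highest level in 7 of 8 members, and E18.5 in Camp. For Camp, Ltf and Elane the levels at E18.5 and in P1 male did not differ beyond counting error, with ratios of P1 male to E18.5 of 0.919 (95% interval 0.766 to 1.10), 1.04 (0.952 to 1.14) and 1.13 (0.831 to 1.54). Compared per kilobase of exon in P1 male, the order of levels was S100a9 (2351 normalized counts per kb), S100a8 (1423), Ngp (615), Camp (254), Ltf (236), Lcn2 (173), Mpo (138) and Elane (78.2). Neighbours in that order were apart beyond counting error except Camp and Ltf (intervals 222 to 288 and 222 to 251). In the 2-week female library the order was kept from S100a9 (1141 per kb) to Lcn2 (72.0), while Elane (13.4, interval 7.53 to 22.2) and Mpo (9.02, 6.28 to 12.5) overlapped.

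Between the 2-week libraries, the values that chose the genes, the female library exceeded the male 2-fold or more for all 8, as it did for 3.67% of 16720 genes (those with a mean of at least 10). Camp was at least 45.6-fold and Mpo at least 11.6-fold higher, counted against 3 reads in the male library. The ratio was 195 for Ngp (95% interval 53.6 to 1615), 126 for S100a8 (53.9 to 390), 95.6 for S100a9 (46.2 to 239), 22.4 for Ltf (14.2 to 37.6), 21.2 for Lcn2 (11.3 to 44.9) and 7.44 for Elane (1.73 to 67.0). The ratios of Ngp and Elane rest on 2 reads each in the male library. That is under the 3 reads used for Camp and Mpo, so these folds are not on 1 footing. Ngp ranked 2nd and Camp 3rd among the 16720 genes by this difference on the log2(normalized count + 1) scale, S100a8 5th, S100a9 8th, Mpo 23rd, Ltf 36th, Lcn2 39th and Elane 141st. The median difference of the 8 was 5.68 on that scale, and 4.998 with values under 3 reads raised to 3 reads and no pseudocount. Summed over the 8 genes, the 2-week male library held 45 reads and the 2-week female library 2536.

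The genes next to the members on the chromosomes were compared in the same libraries. Of the 16 neighbouring places (the nearest measured protein-coding gene on each side), 13 held a gene in none of the gene lists, and their log2 differences (female minus male) ranged from -0.13 to 0.40. The other 3 places hold S100a8 and S100a9, which neighbour each other (6.69 and 6.37), and Prtn3 (1.52). The closest neighbours of Elane are Prtn3 (proteinase 3, another primary granule protease), with 0.890 and 4.41 normalized counts in the 2-week male and female libraries, and Cfd (complement factor D, made by fat cells), with 5783 and 5638.

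Whether the genes changed between P1 and adulthood was tested in the 4 libraries of P1 and 12 weeks, with sex as a block. The rule that chose the genes used the 2-week values and not these, but the genes were picked with earlier results of these data known. In limma all 8 passed an adjusted p of 0.05 and were lower at 12 weeks, against 19.1% of 16720 genes called lower. A gene near 0 at 12 weeks enters this test only through the earlier libraries, so the count over the 8 is a description. The difference (12 weeks minus P1, log2(normalized count + 1) scale) was -9.25 ± 0.470 (SE) for Ngp (limma adjusted p 0.000352), -8.28 ± 0.514 for Mpo (0.000587), -6.61 ± 0.423 for S100a8 (0.000609) and -4.35 ± 0.303 for Ltf (0.000707), the smallest of the 8. S100a9, Lcn2, Elane and Camp lay between, with limma adjusted p from 0.000445 to 0.00312. Each was lower in both 12-week libraries than in both P1 libraries. Without a pseudocount, the P1 mean was at least 163-fold the 12-week level for Ngp and at least 16.5-fold for Elane, against 3 reads in each 12-week library, and 21.4-fold for Ltf, 74.5-fold for S100a9 and 120-fold for S100a8. For Camp it was 23.1-fold the 12-week male level (5 reads) and at least 47.5-fold the 12-week female level (0 reads). For Lcn2 it was 34.4-fold the 12-week male level (8 reads), with 1 read in 12-week female, and for Mpo at least 108-fold the 12-week male level (0 reads), also with 1 read in 12-week female. Leaving out 1 of the 12-week libraries moved the fitted difference of Camp to -4.32 (without female) or -7.32 (without male) and that of Lcn2 to -4.96 or -7.47.

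With P1 male or P1 female left out, the fit cannot hold the sex block and P1 has 1 library. Several members then lost their call. The spread in these fits comes from the 12-week libraries alone, where Ngp and Elane had 0 reads in both. Passing there is therefore no measure of how well a member holds, and only sizes are given. Without P1 male and without P1 female the sizes were close to those in all 4 libraries. For example, they were -4.10 and -4.61 for Ltf and -8.21 and -8.35 for Mpo. With all 4 libraries and no sex block, chosen after seeing the data, 8 of 8 passed, and with all genes above 0 tested 0 of 8 passed (limma adjusted p 0.132 to 0.147). The test treats the pools as replicates of an age and has 1 residual degree of freedom.

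**Figure D2:**
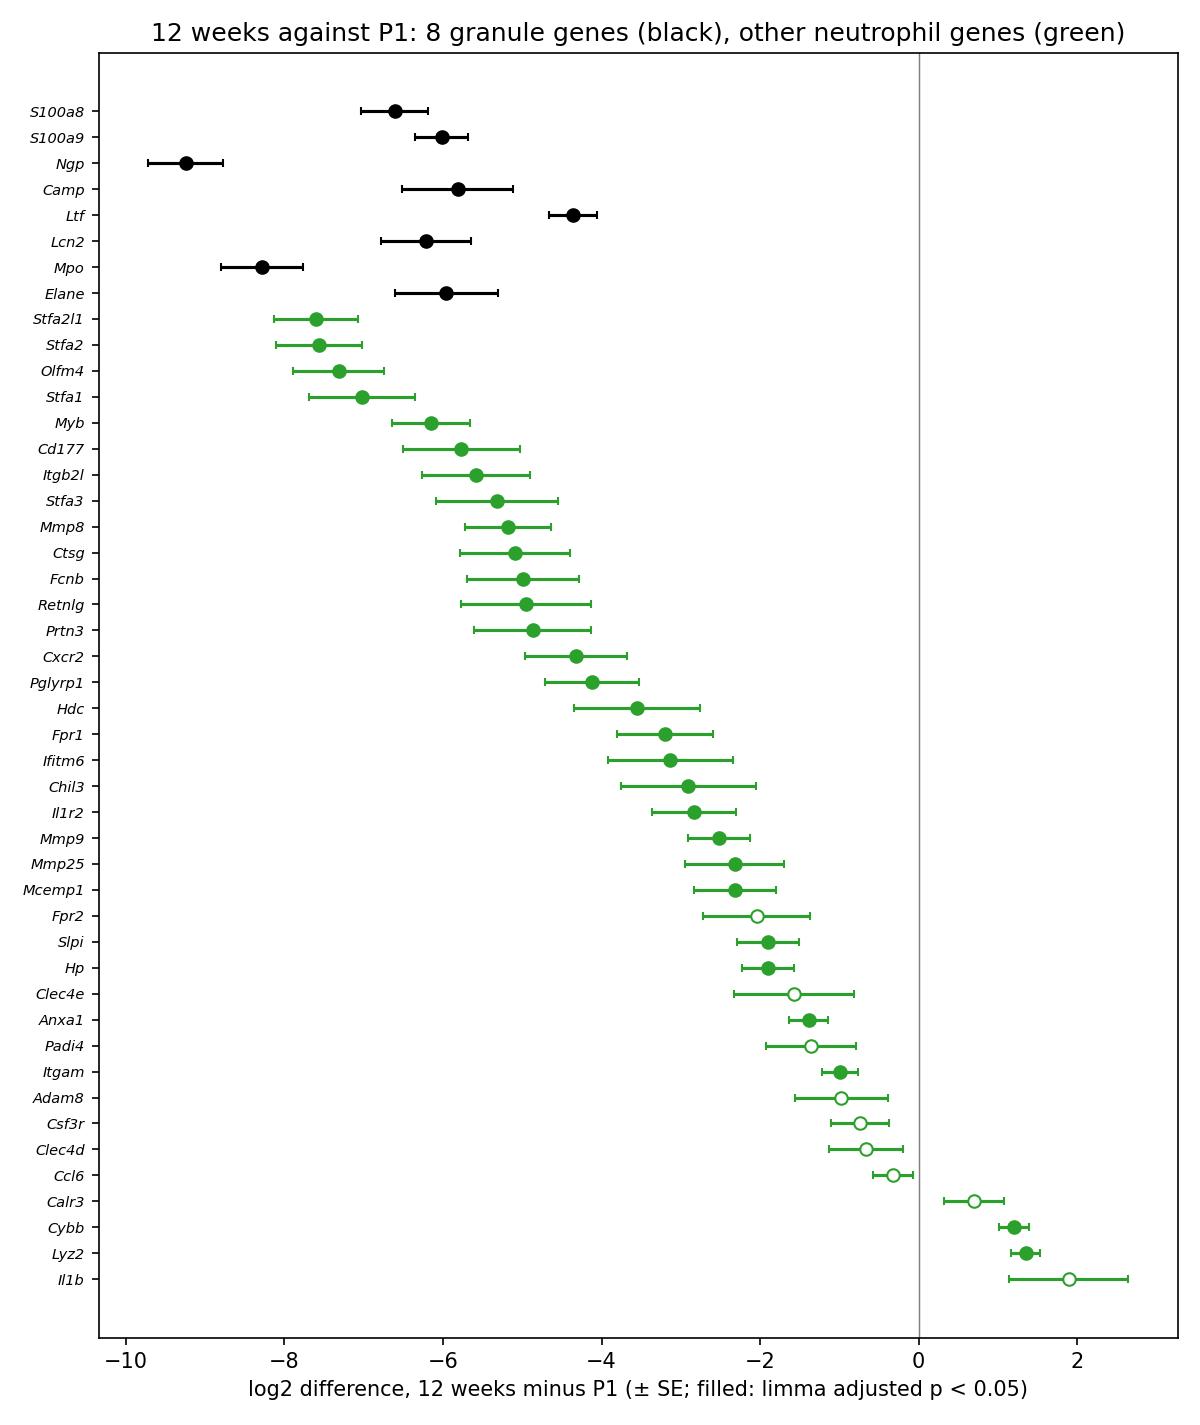
Differences between 12 weeks and P1 on the log2(normalized count + 1) scale with standard errors from limma, for the 8 granule genes (black) and 38 other measured neutrophil genes (green), filled where the adjusted p was under 0.05. The 8 granule genes lie between -9.25 (Ngp) and -4.35 (Ltf), and of the 4 genes to the right of 0 only Lyz2 and Cybb are filled (Calr3 and Il1b are not).

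Sex was examined in the same 4 libraries. In limma 0 of 8 members passed an adjusted p of 0.05, as did 0 of all 16720 genes (0%), of which 674 had an unadjusted p under 0.05. DESeq2 on the recovered reads called 16 genes and edgeR 0. The members' adjusted p was 0.999 in limma. This fit has 1 residual degree of freedom, and P1 female held Y-linked transcripts at 21.0% of the P1 male level. A count of 0 therefore does not show that the sexes are alike. Camp (male minus female 1.78 ± 0.695 SE, log2) and Lcn2 (1.53 ± 0.563) had the largest differences, which at 12 weeks rest on 5 against 0 reads and 8 against 1 reads.

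At P1 all 8 members had a higher value in the male library, and 2 of them, S100a8 (ratio 2.01, 95% interval 1.798 to 2.24) and S100a9 (2.15, 1.94 to 2.38), at least 2-fold, as did 3.75% of genes. The ratio was between 1.43 and 1.58 for Ltf, Lcn2, Camp, Ngp and Elane. For Mpo it was 1.09 (0.962 to 1.25), a difference within counting error. The direction was thus the opposite of that at 2 weeks in all 8 genes, with 1 pool behind each value. The 2-week direction belongs to the values that chose the genes. The median P1 difference (male minus female, log2) was 0.59 for the 8 and -0.02 over all 16720 genes. The share of all genes that were higher in P1 male by any amount, or that reversed, was not counted. At 12 weeks Ngp and Elane had no read in either library and Mpo had 0 and 1. Lcn2 was 9.89 times as high in the male library (95% interval 1.33 to 439), beyond counting error, and Camp at least 2.06-fold higher there. S100a8, S100a9 and Ltf differed by less than counting error between the 12-week sexes, with ratios of male to female of 0.824 (0.171 to 3.47), 1.37 (0.501 to 3.82) and 0.906 (0.498 to 1.62).

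From E18.5 to P1 the levels moved by less than 2-fold. Of the 8 members 7 were above E18.5 in P1 male and 2 in P1 female. S100a9 was at 1.36 times E18.5 in P1 male (95% interval 1.26 to 1.47) and at 0.634 times in P1 female (0.570 to 0.705). None of the 8 differed by 2-fold from E18.5 in P1 male (8.4% of genes did, either way) or in P1 female (13.2%). Most genes stayed under 2-fold, so 0 of 8 does not set the members apart. The largest difference in P1 male was Lcn2, at 1.48 times E18.5 (95% interval 1.29 to 1.69), and in P1 female Camp, at 0.623 times (0.496 to 0.778). Both comparisons use the same E18.5 library. Mpo was above E18.5 in both P1 libraries, 1.46 times (1.28 to 1.66) and 1.33 times (1.15 to 1.54).

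From P1 to 2 weeks the sexes parted. All 8 members were at least 2-fold higher in P1 male than in 2-week male (13.8% of genes were), whereas only Mpo and Elane were at least 2-fold higher in P1 female than in 2-week female (12.8%). That difference between the male and female libraries was not tested, and the 2-week libraries were used to choose the genes. The P1 female library also held Y-linked transcripts at 21.0% of the P1 male level. In the 2-week female library Mpo stood at 7.14% of its P1 female level (95% interval 4.90 to 10.1) and Elane at 27.2% (14.1 to 49.9). The secondary granule genes stood at 60.2% (Lcn2, 50.2 to 72.2) to 93.5% (Camp, 72.6 to 121), and S100a8 at 114% (101 to 129). Relative to P1 male the same split was present, with Mpo at 6.52% (4.49 to 9.17), Elane at 17.2% (9.26 to 29.8) and the other 6 between 41.5% (Lcn2) and 63.3% (Camp). From 2 weeks to 12 weeks in females all 8 were at least 2-fold lower (13.4% of genes were), Ngp at least 102-fold and Camp at least 35.9-fold against 3 reads.

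**Figure D3:**
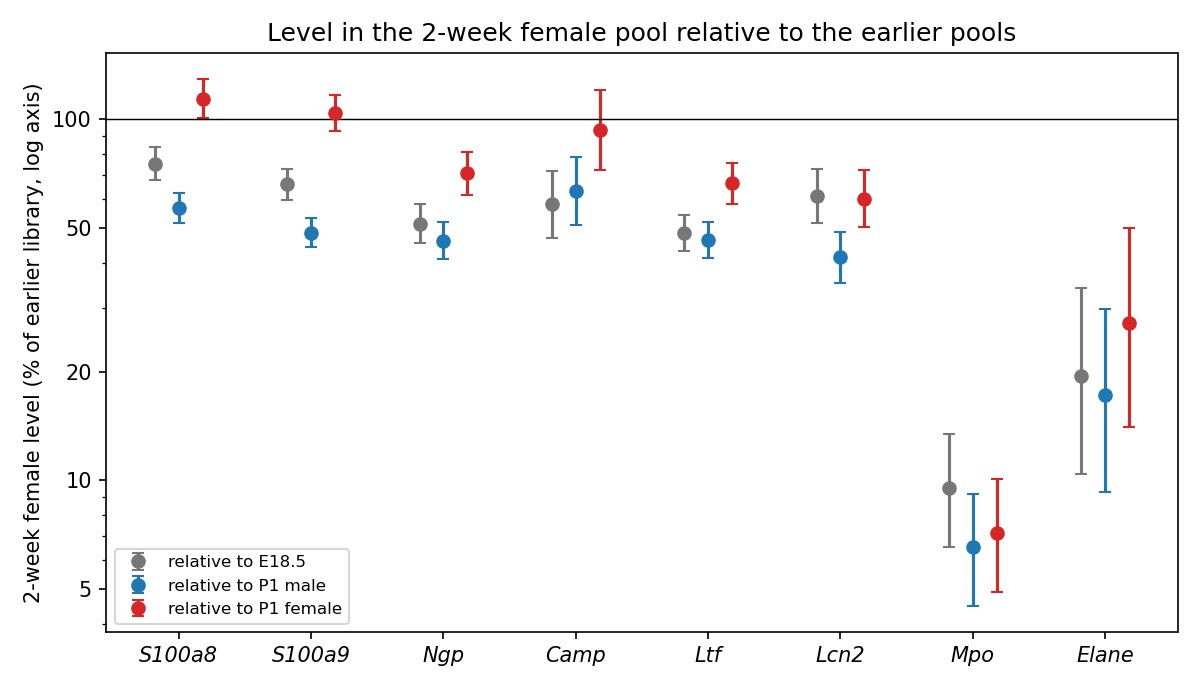
Level of each gene in the 2-week female library as a percent of its level in the E18.5, P1 male and P1 female libraries, with 95% binomial intervals for counting error, on a log axis. Mpo and Elane lie at 6.52 to 27.2%, and the other 6 genes at 41.5 to 114%.

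The make-up of the 8 transcripts, taken as shares of their summed reads, showed the same feature. Mpo and Elane together made up 9.80% of the reads of the 8 genes at E18.5 (exact 95% interval 8.97 to 10.7), 11.1% in P1 male (10.3 to 11.9), 15.8% in P1 female (14.5 to 17.2) and 1.97% in 2-week female (1.47 to 2.59). The calprotectin genes made up 41.0%, 44.5%, 34.9% and 51.7% in those libraries, and the secondary granule genes 49.2%, 44.5%, 49.3% and 46.3%. The 2-week female library was thus the lowest of these 4 in primary granule transcripts and the highest in calprotectin, beyond counting error. The 2-week male and both 12-week libraries had only 45 to 49 reads in the 8 genes. In them the secondary granule share was 66.0 to 71.4%, of which most was Ltf.

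**Figure D4:**
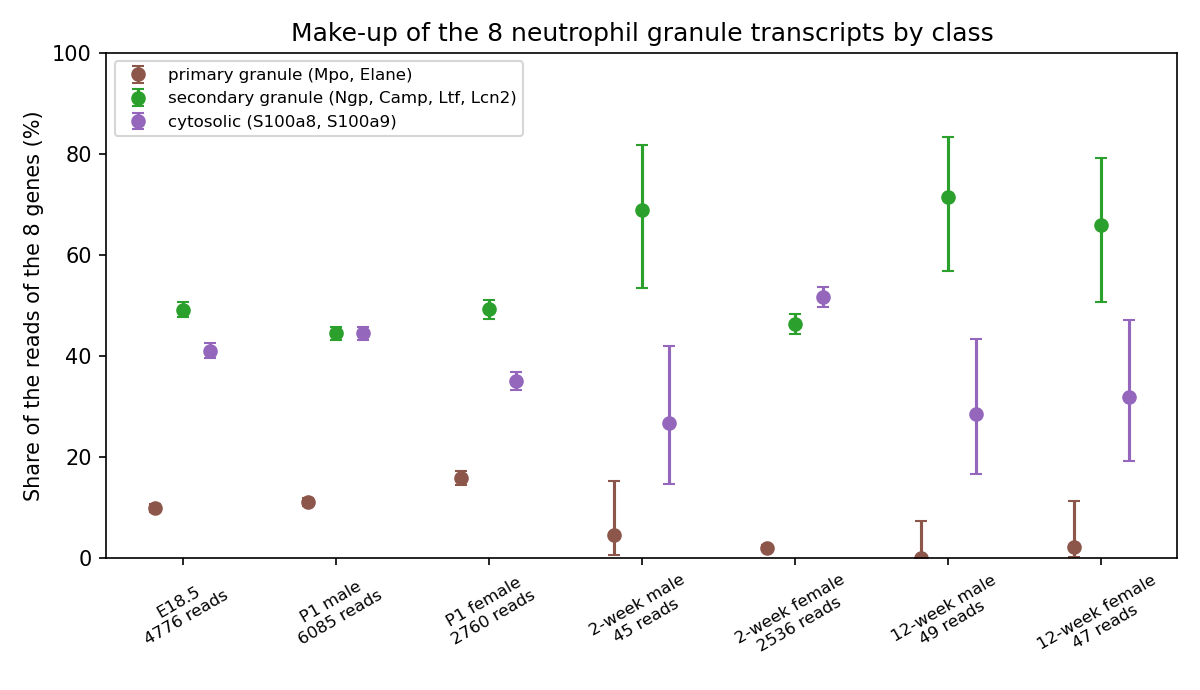
Share of the reads of the 8 genes that came from primary granule (brown), secondary granule (green) and cytosolic (purple) genes in each library, with exact 95% binomial intervals and the total of reads under each label. The primary granule share is 1.97% in the 2-week female library against 9.80 to 15.8% at E18.5 and P1, and the intervals are wide where only 45 to 49 reads were present.

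Other genes of the neutrophil lineage, from lists drawn up by function, were counted next to the members. Of the primary granule and promyelocyte list 4 of 9 genes had a mean of at least 10 normalized counts, and 3 of them were lower at 12 weeks than at P1 in limma: Prtn3, Ctsg (cathepsin G) and Myb (a progenitor transcription factor), while Calr3 did not pass (0.70 ± 0.378 SE). Of the secondary and tertiary granule list 13 of 17 measured genes fell and 2 rose, Lyz2 (lysozyme, by 1.35 ± 0.185 log2) and Cybb (a subunit of the phagocyte oxidase, by 1.20 ± 0.193), both of which macrophages also make. Among all genes 19.1% fell and 12.4% rose. Of the mature neutrophil list 11 of 17 fell and 0 rose. The medians of the measured members were -4.98, -2.32 and -3.13 log2 for the 3 lists, and -0.03 over all genes.

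Low levels in the 2-week female library relative to P1 were present in other primary granule genes, and also in some genes of later stages. As a percent of the mean of both P1 libraries, the measured genes of the primary list had a median of 17.3%, with 3 of 4 under 25% (Prtn3, Ctsg and Myb) and Calr3 at 187%. Over all 16720 genes the median was 99.0%, and 5.68% of genes were under 25%. Prtn3 and Ctsg had 4.41 and 7.06 normalized counts in the 2-week female library, and Myb had 19.6 in 2-week male and 21.2 in 2-week female, a like level in both. The median was 52.9% for the secondary and tertiary list (5 of 17 under 25%) and 52.6% for the mature list (5 of 17). The difference between the lists was not tested, and the later lists were mixed. Their genes are named here after their values were seen. Olfm4 (olfactomedin, found in a subset of neutrophils) stood at 2.69%, Fcnb (ficolin B) at 17.1%, Hp (haptoglobin) at 18.9%, Slpi (a protease inhibitor) at 21.7% and Pglyrp1 (which binds peptidoglycan) at 23.8%. In the mature list Il1r2 (a decoy receptor) stood at 8.09%, and 4 stefin A genes, uncertain as near-identical copies, at 11.3 to 19.9%. At the other end Chil3, a chitinase-like protein, stood at 135%, with 254 and 114 normalized counts at P1, 1.78 in 2-week male and 248.8 in 2-week female. Ly6g, the surface antigen used to sort mouse neutrophils, had 14.7 and 3.31 at P1, 5.29 in 2-week female and 0 in 2-week male and both 12-week libraries. Its level was too low for the mean of at least 10.

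Signals that call neutrophils into tissue were counted in the same way. Of the list of recruitment signals and adhesion molecules, 11 of 16 genes were measured, 1 fell from P1 to 12 weeks (Cxcl12, which retains neutrophils in marrow, by 0.90 on the log2 scale) and 1 rose (Sele, endothelial E-selectin). At 2 weeks their median difference (female minus male) was 0.25, with 1 gene at least 2-fold higher and 1 lower, beside the 3.67% of all genes that were higher. Cxcl12 had 1267 normalized counts in 2-week male and 1511 in 2-week female, Vcam1 742 and 648, and Cxcr4 1531 and 1193.

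At 2 weeks (female minus male) the other neutrophil lists had smaller medians than the 8 genes, which were chosen for that gap. The median was 0.92 log2 for the primary granule and promyelocyte list (2 of 4 measured genes at least 2-fold higher). It was 1.39 for the secondary and tertiary list (11 of 17) and 2.26 for the mature list (11 of 17). Markers of other cells moved with the 2-week gap in some lists and not in others. In the 2-week female library 18 of 18 skeletal muscle genes exceeded the male level 2-fold or more (median 4.87 log2), with summed levels of 630 and 14677 normalized counts and no marker at 0. Actin alpha 1 of skeletal muscle (Acta1) had 48.9 and 2333. Of 15 erythroid genes 14 passed 2-fold in the same direction (median 2.89), with sums of 12844 and 31424 and no marker at 0, and the beta globin Hbb-bs, uncertain because of its near-identical copy Hbb-bt, had 6338 and 16276. The part of muscle and blood in the granule gene gap was not tested.

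Lists of other leukocytes had smaller medians between the same libraries. None of 12 macrophage genes was 2-fold apart (median 0.12, sums 3950 and 4300, no marker at 0). Of the 6 monocyte genes 2 reached 2-fold on the female side and all 6 were above the male level (median 0.53, sums 6826 and 8578, no marker at 0). Fn1 alone had 6381 and 7884 normalized counts, so these sums mostly follow Fn1. Monocytes also make calprotectin, and their part in the gap of S100a8 and S100a9 was not tested. The median was 0.29 for 7 measured B cell genes, 0.17 for 4 T and NK cell genes (1 of them 2-fold lower), 0.03 for 7 genes of eosinophils, basophils and mast cells (1 of them 2-fold higher) and 0.31 for 6 of megakaryocytes and platelets (1 of them 2-fold higher). Of the 11 measured bone and cartilage genes 2 reached it too (median 0.28). Adrenal cortex, medulla and proliferation genes had medians of 0.01, -0.18 and 0.00. All 6 acute phase genes, made mostly by liver, were higher in the female library (median 0.77), 1 of them at least 2-fold.

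**Figure D5:**
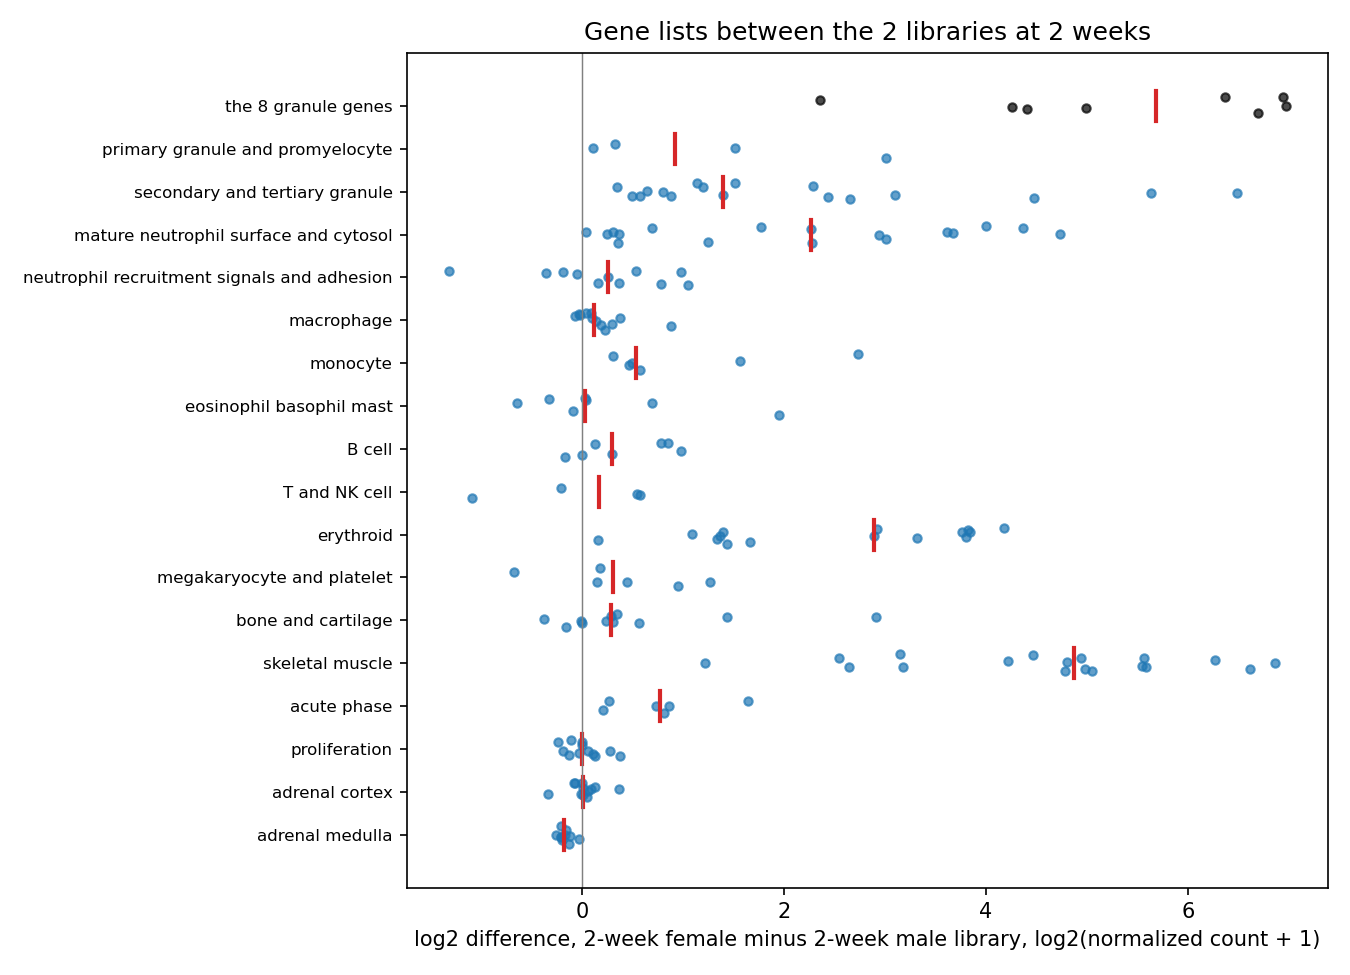
Differences between the 2-week female and male libraries for each measured gene of each list (points) and the list's median (red bar), on the log2(normalized count + 1) scale, 1 library per sex. The 8 granule genes (median 5.68), skeletal muscle (4.87) and erythroid genes (2.89) lie far to the right, and macrophage (0.12), proliferation (0.00) and adrenal cortex genes (0.01) lie near 0. The other neutrophil lists lie between, at 0.92 (primary granule), 1.39 (secondary and tertiary granule) and 2.26 (mature).

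The same lists were followed from P1 to 12 weeks beside the members' fall. Summed muscle genes went from 94343 and 174868 normalized counts in P1 male and female to 250.3 and 188.9 at 12 weeks, and 18 of 18 were lower in limma. Erythroid genes went from 68106 and 65572 to 13951 and 6253, with 15 of 15 lower. Of 12 macrophage genes 5 fell and 0 rose, among them Mrc1 (-1.38 ± 0.256 SE, log2), while Csf1r (-0.54 ± 0.197) and C1qa (0.37 ± 0.217) did not pass. Other lists fell as well: 6 of 7 genes of eosinophils, basophils and mast cells (median -3.44), 5 of 6 of megakaryocytes and platelets (-2.28), 4 of 6 of monocytes, with 1 higher (-1.72), 3 of 7 of B cells (-1.51) and 12 of 12 of proliferation (-3.69). Markers of many cell types thus moved with the granule genes in this comparison, and their part was not tested. Between the P1 libraries (male minus female) the medians were 0.59 for the 8 granule genes, 0.66 for monocyte genes (5 of 6 higher in P1 male), -0.28 for erythroid genes and -0.92 for muscle genes. Mature neutrophil genes had 1.13 (14 of 17 higher), secondary and tertiary granule genes 0.44 (11 of 17) and primary granule genes 0.17 (2 of 4). Adrenal cortex genes had 0.77 (10 of 12 higher in P1 male) and medulla genes -0.33 (2 of 10).

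The genes whose pattern over the 7 libraries was most like the members' mean were found by the root mean square distance of centred log2 profiles, among genes with a mean of at least 10. The nearest 10 were Slfn14 (0.37), Cldn13 (0.38), Itgb2l (0.50), Stfa2 (0.50), Stfa1 (0.61), Smtnl1 (0.65), Trdn (0.65), Stfa2l1 (0.68), Cacna1s (0.69) and Cd177 (0.70). The members themselves lay between 0.37 (S100a9) and 1.25 (Ngp) from that mean. Itgb2l, Cd177 and the stefin A genes Stfa1, Stfa2 and Stfa2l1 are known from neutrophils, and the stefin genes are near-identical copies whose reads are uncertain. Trdn (triadin) and Cacna1s (a calcium channel) belong to skeletal muscle. Slfn14 had 234, 162, 198, 0.890, 82.0, 1.40 and 0 normalized counts in the order of libraries used above, and Cd177, a neutrophil surface protein, had 97.5, 124, 76.2, 0, 48.5, 0 and 2.26. Trdn had 197, 450, 814, 2.67, 178, 4.19 and 2.26, with P1 female above P1 male, unlike any of the 8 members.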

How the data were processed

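The authors deposited 1 table of normalized values for 7 libraries, a signal made of read counts scaled by a size factor for each library, as the values show: 100% of them were whole multiples of a step within 0.01 reads. Per the submitters' processing notes CASAVA 1.8.2, HISAT2 2.1.0, HTSeq 0.9.1, DESeq2 2.11.40.6 and mm10 were used; their roles, the annotation and strand use are not given in the sources used here. PCR reads carry no molecular identifier and may repeat a molecule, so intervals cover counting error only.

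Differences were computed on log2(value + 1) for 16720 genes with a mean of at least 10, all 8 members among them. P1 and 12 weeks were compared with limma 3.58.1 (R 4.3.3; age and sex as terms, eBayes with trend, two-sided, Benjamini-Hochberg over all genes). The labels do not say that pools are independent litters, so p-values measure only the spread between these libraries. Pairs of libraries were described without a test, with exact Poisson or binomial (Clopper-Pearson) 95% intervals. edgeR 4.0.16 and DESeq2 1.42.0 on recovered reads were alternatives, and edgeR called 5509 genes between P1 and 12 weeks. The limma fit was tested on simulated data, where false calls exceeded the nominal rate in some draws. Exon lengths came from GENCODE vM21, and promoters (8 of 8 members matched) from RefSeq. The members and lists were chosen with earlier results of these data known. Named genes are the 8 members, the 3 measured genes of each list with the highest mean, the 10 of most similar pattern, and others named after their values were seen.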

Additional observations from a re-analysis of the deposited data

Results flagged for a closer look

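In all 8 genes the male minus female difference went opposite ways at P1 and at 2 weeks, which the 2 ages' pools, 1 per sex, do not allow to test. The 2-week values chose the genes, so the direction at 2 weeks is no separate result. The share of all genes that reversed between these ages was not counted. The P1 difference minus the 2-week difference, on the log2(normalized count + 1) scale, was 7.58 for Ngp, 7.50 for Camp, 7.69 for S100a8, 7.47 for S100a9, 4.93 for Ltf, 4.80 for Lcn2, 3.01 for Elane and 5.13 for Mpo. Male minus female was 0.13 (Mpo) to 1.10 (S100a9) at P1 and -6.97 (Ngp) to -2.36 (Elane) at 2 weeks. The difference for Mpo at P1 was within counting error. The P1 values involve the library labelled P1 female, which held Y-linked transcripts at 21.0% of the P1 male level.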

How the results depend on the processing

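Of 119 alternative values for the members from P1 to 12 weeks, the call held in 100, was lost with the direction kept in 19 and turned round in 0. These include the fits that leave out 1 library, which are read for the size of the difference only. When every gene with any read was tested, 0 of 5275 calls were left (7361 at an unadjusted p under 0.05 in limma; edgeR 5509 and DESeq2 4428 with the main filter) and 0 of 8 members; the cause was not tested. Leaving out 1 library, without the sex block that 3 libraries cannot carry, gave 474 (without P1 female) to 4905 calls and 3 (without P1 male) to 8 members, in fits where a lone library is assumed to vary like the others; all 4 libraries without the block, chosen after seeing the data, gave 5909 calls and 8 members. Camp was lost with all 6 postnatal libraries (limma adjusted p 0.0629) and Elane in DESeq2 (0.128); these 2 fits kept 7 of 8. With a mean of at least 50, 7 members were tested and 7 passed. For sex, a pseudocount of 5 gave 1 gene, all 6 postnatal libraries 1 and DESeq2 16, none a member. In the fit of P1 against 12 weeks, 2076 genes rose and 3199 fell; with equal totals the figures were 1738 and 3753 and with upper-quartile scaling 2711 and 2953. Genes at least 2-fold higher in 2-week female numbered 614, and 1518 with all genes above 0 and 178 at 4-fold, with all 8 members in each. Of 114 values between 2 libraries 111 stayed within counting error, and Ngp, Camp and Mpo at 2 weeks moved with a pseudocount of 5, to 5.70, 4.66 and 2.84 log2. The main fit compares ages within sex; beyond that, no paired analysis was possible because each group has 1 library. Under 50 reads in the 8 genes limit the 2-week male and 12-week libraries.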
